A study of Mus musculus with 8 samples.

Results

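The R-spondins (Rspo1, Rspo2, Rspo3 and Rspo4) and their receptors of the LGR group (Lgr4, Lgr5 and Lgr6) were taken by gene symbol from a table of 17631 genes, and all 7 were found there. RNA came from the apical part of lower first molars, where the root grows, of C57BL/6 mice at postnatal day 7.5. Each genotype had 4 libraries, Runx2fl/fl as the control and Gli1-CreERT2;Runx2fl/fl as the mutant, so that floxed Runx2 was common to both. The labels give both groups the same intraperitoneal tamoxifen on postnatal day 3.5, dosed as 1.5 mg for every 10 g of weight in corn oil (20 mg/ml). Gli1-CreERT2 is a recombinase that tamoxifen activates in cells that express Gli1, so Runx2 is a target in these cells and their progeny and not in the whole tooth. The driver was carried by the mutant group alone, so its own effects and those of Runx2 loss cannot be told apart. The question that the design addresses is which transcripts differ in the growing root once Runx2 is deleted from Gli1-expressing cells.

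R-spondins are secreted proteins that strengthen WNT signalling. An R-spondin bridges an LGR receptor and the membrane E3 ubiquitin ligases ZNRF3 and RNF43, which otherwise remove Frizzled receptors from the cell surface. With the ligases cleared, more Frizzled and LRP receptors remain to bind WNT ligands. LGR5 is known as a marker of epithelial stem cells and is itself a target of WNT signalling, LGR4 is expressed in many tissues, and LGR6 marks progenitors in skin and other epithelia. RSPO4 is best known for its role in nail formation, RSPO2 in limb and lung development, RSPO3 in placental and vessel development, and RSPO1 in ovary determination.

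At an adjusted p of 0.05, none of the 7 genes passed in the authors' deposited table, against 0.788% of all 17631 genes (139). By direction, 0.471% of all genes passed as higher and 0.318% as lower in the mutant, and of the 7 genes 0 passed in each direction. Rspo1, with a 1.86-fold lower mean in the mutant, and Lgr5, with a 3.11-fold higher mean, lay nearest to the threshold. The most abundant ligand and receptor, Rspo4 and Lgr6, differed by 1.16-fold and 1.25-fold in opposite directions. Of the ligands, 3 of 4 had higher means in the mutant, and of the receptors 1 of 3, where 8920 of all 17631 genes had one. The median log2 ratio of mutant over control was 0.16 for the ligands and -0.18 for the receptors, beside 0.00327 for all genes. An unadjusted p under 0.05 was found for 4 of the 7 (Rspo1, Rspo3, Lgr5 and Lgr6), with 2 in each direction, while 19.3% of all genes had one (9.89% higher and 9.4% lower). All levels and p-values of single genes below are the authors' group means and p-values from their deposited table. It holds no values per library, so no spread, no standard error and no count of libraries per direction can be given, and depth is unknown. Whether each library is 1 animal is not stated, so the p-values measure the spread between libraries, which may be technical in part. In a bulk sample, fewer cells of a type and less RNA per cell cannot be told apart.

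Runx2 had means of 65.1 (mutant) and 105.5 (control) (adjusted p = 0.0646, the authors' deposited table), which is 1.62-fold lower and outside the threshold. Gli1, which drives the recombinase, fell from 38.8 to 19.9, a 1.95-fold change (adjusted p = 0.0228, the authors' deposited table). The summed group means over all genes were 955256 in mutant and 1050684 in control molars. Tooth markers were present in both groups, with Dspp of odontoblasts at 7360 in mutant and 7714 in control molars. Amelx of ameloblasts stood at 112174 and 174946, so the tissue also held enamel epithelium.

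The 7 genes are protein-coding and lie on 5 chromosomes (GRCm38 coordinates from GENCODE M21; mm10 is the same assembly). Rspo1 lies on chromosome 4 (124986430 to 125009099, plus strand) and Rspo4 on chromosome 2 (151842927 to 151874668, plus strand). Rspo2 is on chromosome 15 (43020794 to 43170826, minus strand) and Rspo3 on chromosome 10 (29452416 to 29535867, minus strand). Lgr4 shares chromosome 2 with Rspo4 (109917647 to 110014257, plus strand), Lgr5 shares chromosome 10 with Rspo3 (115450311 to 115587780, minus strand), and Lgr6 is on chromosome 1 (134983301 to 135105276, minus strand). The longest coding sequence of a ligand runs from 684 bases in Rspo4 to 831 in Rspo3, and that of a receptor from 2721 in Lgr5 to 2901 in Lgr6. Exonic length, counted over the exons of all annotated transcripts, differs more widely, from 1938 bases in Rspo1 to 10264 in Lgr5. Annotated genes overlap Rspo1 (the antisense Gm12930), Rspo3 (the antisense Gm48159 and, on the same strand, Gm20276), Rspo4 (the antisense Rspo4os) and Lgr5 (the opposite-strand A930009A15Rik). None of these 5 was analysed here, and since no source used here says whether strand was counted, their reads cannot be told apart from those of the 4 genes they overlap.

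Promoter sequence was matched for 4 of the 7 genes (Rspo1, Rspo4, Lgr4 and Lgr6) in the RefSeq table on GRCm38.p6. The windows of the 250 bases before the start are shown for 2 ligands, the one nearest to the threshold and the most abundant one, because the deleted gene encodes a DNA-binding factor. They are written 5′ to 3′ on the strand of the gene, with CG dinucleotides in capitals. The Rspo1 window is chr4:124986180-124986429 and the Rspo4 window chr2:151842677-151842926, both on the plus strand.
Rspo1: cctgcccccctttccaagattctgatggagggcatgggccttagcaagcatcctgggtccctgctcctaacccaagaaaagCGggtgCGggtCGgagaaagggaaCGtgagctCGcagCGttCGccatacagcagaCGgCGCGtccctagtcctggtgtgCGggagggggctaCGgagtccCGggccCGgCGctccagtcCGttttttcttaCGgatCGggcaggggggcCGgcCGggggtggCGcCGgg
Rspo4: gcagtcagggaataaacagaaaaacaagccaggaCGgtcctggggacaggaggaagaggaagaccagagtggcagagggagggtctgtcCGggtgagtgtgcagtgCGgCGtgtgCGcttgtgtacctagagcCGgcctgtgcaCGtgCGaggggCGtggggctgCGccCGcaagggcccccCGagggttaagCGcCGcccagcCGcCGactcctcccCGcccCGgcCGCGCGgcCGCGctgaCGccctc
The Rspo1 window held 22 CG dinucleotides at a GC content of 66.8% and the Rspo4 window 24 at 69.6%. The Lgr6 window held 16 and the Lgr4 window 10, and the median over all 32851 promoters of the table was 6 at a GC content of 52.4%. So all 4 windows were richer in CG dinucleotides than the median promoter. Each was searched on both strands for TGTGGT, the core that RUNX factors bind, for CTTTGA, a core of TCF and LEF factors, and for ACCACCC, a core of GLI factors. The letters ACCAC are common to the GLI core and to the reverse of the RUNX core. None of the 3 was in any of the 4 windows, whereas 14.0% of all windows held the RUNX core, 13.8% the TCF and LEF core and 3.92% the GLI core. This says only that these letters are absent from these 250 bases.

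Among the ligands, Rspo4 supplied nearly all of the signal. Its means were 396.9 (mutant) and 341.0 (control), a log2 ratio of 0.22 (adjusted p = 0.567, the authors' deposited table). Its level as deposited, not divided by length, stood above that of 98.6% of the genes in the table. Levels of different genes can be compared only per length, and the deposited means had not been divided by length as far as the lowest values show. The lowest mutant mean was shared by 3 genes with exonic lengths from 989 to 1757 bases, and the lowest control mean by 3 genes from 915 to 3998 bases (relative tolerance 1e-05). These few genes cannot settle how values were normalised, which is not given, so all per-kb levels rest on this reading. Divided by exonic length, the Rspo4 level was 167.4 per kb in mutant and 143.8 per kb in control molars. This is 96.7% of the per-kb level of all 4 ligands in the mutant and 95.7% in the control.

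Rspo2 had means of 18.1 (mutant) and 16.8 (control), a log2 ratio of 0.10 (adjusted p = 0.786, the authors' deposited table). Its per-kb level was 3.53 in mutant and 3.29 in control molars, 2.04% and 2.19% of the ligands' sum. Of the 7 genes, Rspo2 had the smallest log2 ratio regardless of sign and the highest p.

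Rspo1 had means of 3.02 (mutant) and 5.62 (control), a log2 ratio of -0.90 (unadjusted p = 0.000456, adjusted p = 0.0547, the authors' deposited table). It ranked 147 of 17631 by p. When p-values were adjusted over the 14168 genes whose higher mean was at least 1, its adjusted p was 0.0449, under the threshold, where 0.438% of those genes passed as lower in the mutant. Ratios followed the GC content and length of transcripts over all genes; with this trend subtracted, its log2 ratio was -0.70 and its adjusted p 0.295. Under that subtraction none of the 7 genes passed in either direction, against 0.233% of all genes. An unadjusted p under 0.05 then belonged to 4 of the 7 (Rspo1, Rspo3, Lgr4 and Lgr5), against 13.6% of all genes. The GC content of its transcripts, 61.3%, was the highest of the 7 genes. Its share of the ligands' per-kb level was 0.900% in mutant and 1.93% in control molars. In control molars Rspo1 and Rspo2 stood close per kb, at 2.90 and 3.29, while in mutant molars they stood at 1.56 and 3.53. No test of that contrast between genes can be made from group means.

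Rspo3 was the scarcest ligand, with means of 1.73 (mutant) and 0.958 (control). The log2 ratio was 0.85 (unadjusted p = 0.00516, adjusted p = 0.111, the authors' deposited table). With a pseudocount of 1 the log2 ratio was 0.48, so at these low levels the size of the ratio depends on the pseudocount. Rspo1 and Rspo3 thus had ratios of similar size in opposite directions. Their levels as deposited, not divided by length, were under the median of all genes, which was 11.8.

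**Figure D1:**
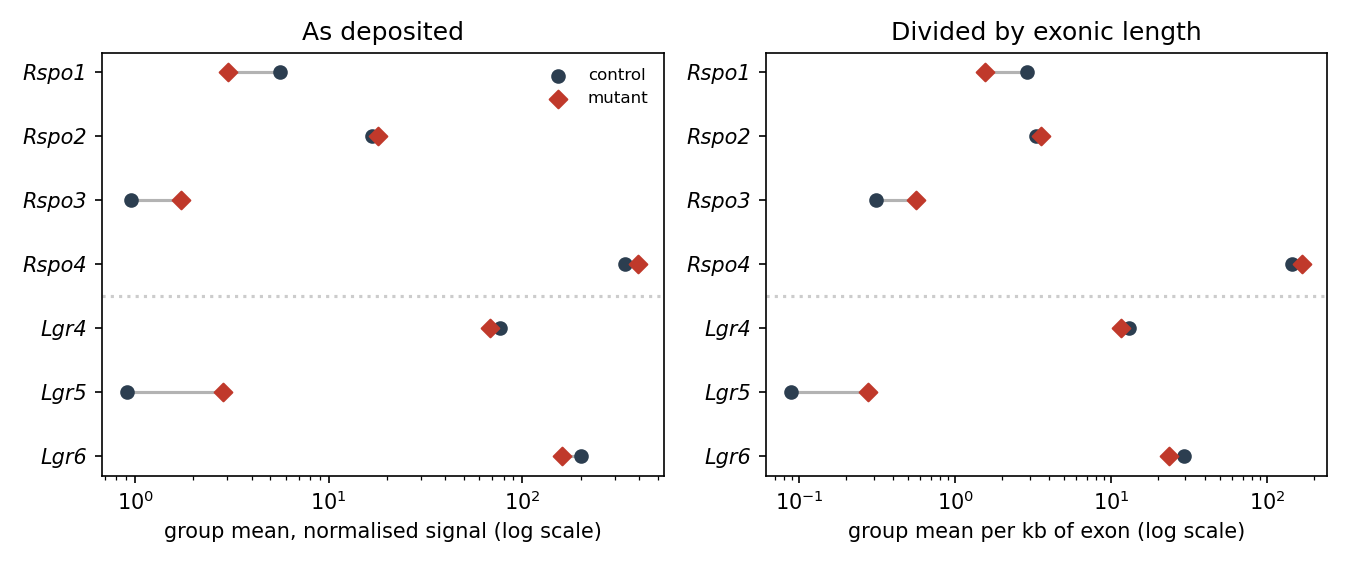
Group means of the 7 genes in control (circles) and mutant (diamonds) molars, as deposited on the left and divided by exonic length on the right, on log scales; each point is the authors' mean of 4 libraries and carries no error bar because values per library were not given. Rspo4 and Lgr6 are the highest ligand and receptor in both groups, and Lgr5, Rspo3 and Rspo1 show the widest gaps between groups.

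Among the receptors, Lgr6 was the most abundant and Lgr5 the scarcest in both groups. Lgr6 had means of 160.1 (mutant) and 199.8 (control), a log2 ratio of -0.32 (unadjusted p = 0.0352, adjusted p = 0.225, the authors' deposited table). Lgr4, the widely expressed receptor, averaged 67.8 (mutant) and 77.0 (control), a log2 ratio of -0.18 (adjusted p = 0.454, the authors' deposited table). Per kb of exon, Lgr6 stood at 23.4 in mutant and 29.2 in control molars, and Lgr4 at 11.5 and 13.1. Lgr6 therefore made up 66.5% of the receptors' per-kb level in mutant and 68.9% in control molars, and Lgr4 32.8% and 30.9%.

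Lgr5, the stem cell receptor, had means of 2.84 (mutant) and 0.912 (control). This log2 ratio of 1.64 was the largest of the 7 genes (unadjusted p = 0.000839, adjusted p = 0.0670, the authors' deposited table), and Lgr5 ranked 220 of 17631 by p. Per kb it was 0.276 in mutant and 0.0888 in control molars, the lowest of the 7 genes in both groups. That length covers all annotated transcripts, 8 for Lgr5 and 2 for Rspo3, and which of them are expressed is unknown. As deposited, the mutant mean of Lgr5 was above that of Rspo3 (1.73), so this rank depends on the length used. Its share of the receptors' per-kb level was 0.786% in mutant and 0.210% in control molars. With a pseudocount of 1 its log2 ratio was 1.01, and with the GC and length trend subtracted it was 1.54 (adjusted p = 0.225 with the subtraction, recomputed from the authors' p-values). The difference in Lgr5 thus concerned a small part of the receptor signal.

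Summed as deposited, the ligands stood at 419.7 in mutant and 364.4 in control molars, a log2 ratio of 0.20, and the receptors at 230.7 and 277.7, a log2 ratio of -0.27. These sums follow Rspo4 and Lgr6, neither of which passed the threshold. The order of the per-kb levels was the same in both groups: Rspo4, Lgr6, Lgr4, Rspo2, Rspo1, Rspo3 and Lgr5. The place of Lgr5 below Rspo3 depends on the length used, since in the mutant its mean as deposited was the higher. Which neighbours in this order differ beyond the spread between libraries cannot be stated.

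**Figure D2:**
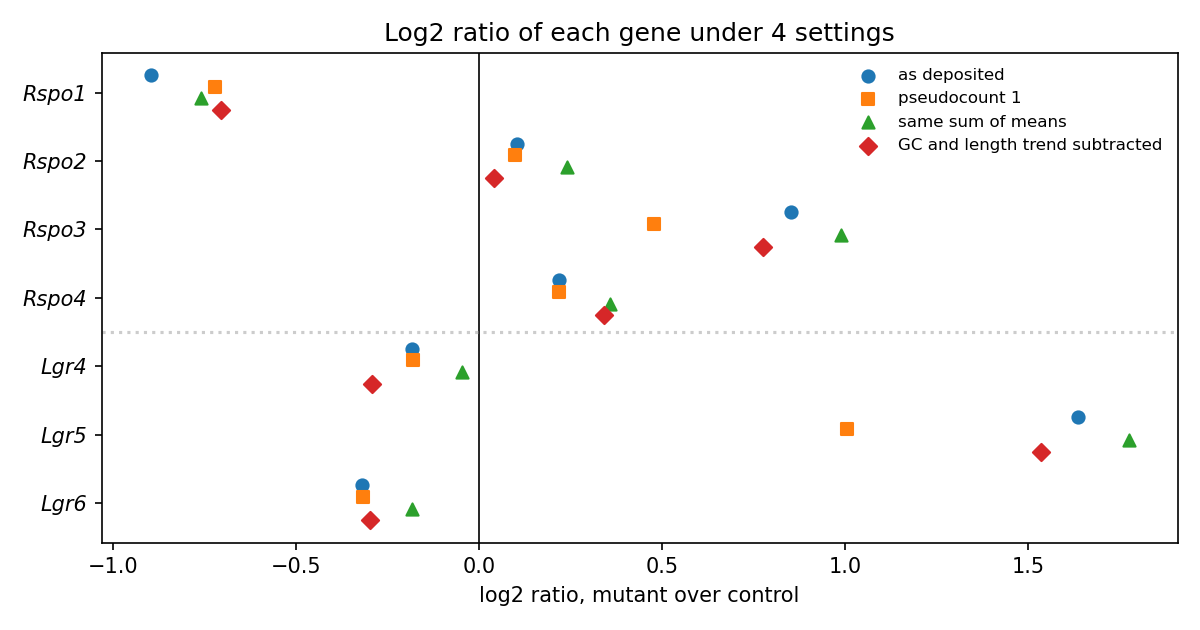
Log2 ratio of mutant over control for each of the 7 genes as deposited, with a pseudocount of 1, with both groups scaled to the same sum of means, and with the GC and length trend subtracted. Each gene keeps its side of 0 under the 4 settings, which a pseudocount cannot change. Lgr5 moves from 1.64 to 1.01 with the pseudocount, Lgr4 lies at -0.05 when the sums are made equal, and Rspo2 at 0.04 with the trend subtracted.

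The plot of ratio against level places these values among all genes. The median size of the log2 ratio, regardless of sign, was 0.20 among genes whose higher mean lay from 1 to under 10, the range of Lgr5, Rspo3 and Rspo1. It was 0.13 from 10 to under 100, the range of Rspo2 and Lgr4, and 0.14 from 100 upwards, the range of Rspo4 and Lgr6. A looser adjusted p under 0.10 took in Rspo1, lower, and Lgr5, higher, that is 2 of the 7 genes, where 3.64% of all genes passed (2.01% higher and 1.63% lower).

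**Figure D3:**
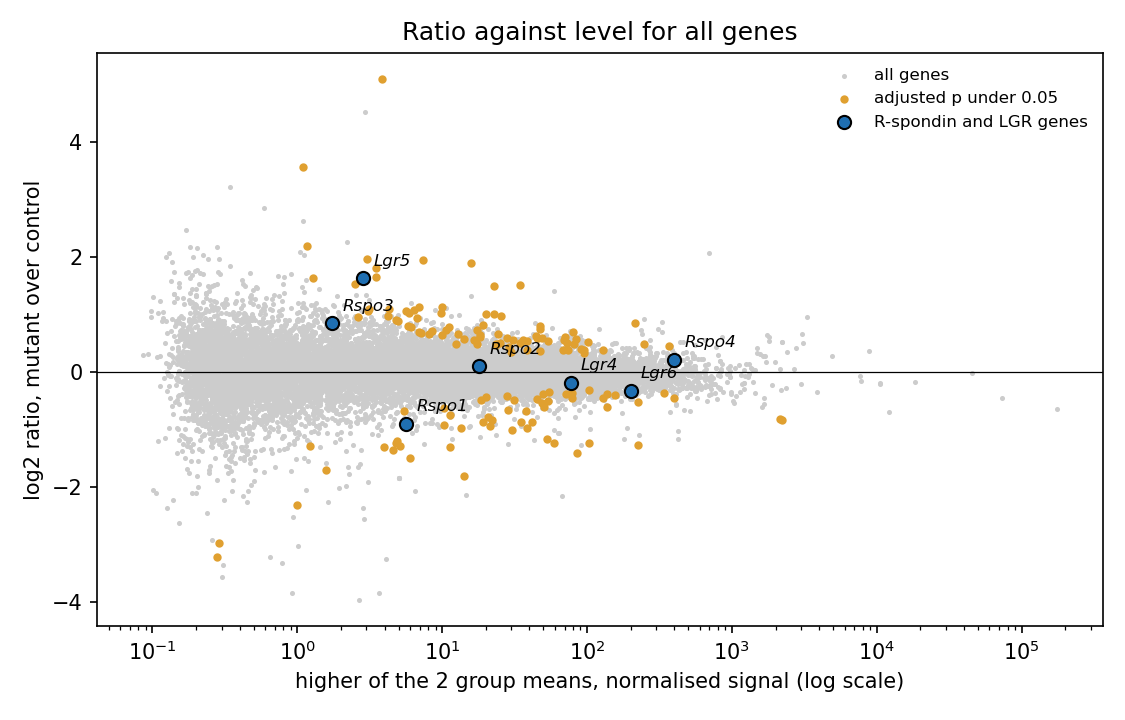
Log2 ratio of mutant over control against the higher of both group means (log scale) for all 17631 genes, with genes at an adjusted p under 0.05 in orange and the 7 genes in blue. Rspo1 and Lgr5 sit at the edge of the cloud at low levels, and Rspo3 lies at 0.85. Rspo2, Rspo4, Lgr4 and Lgr6 lie from -0.32 (Lgr6) to 0.22 (Rspo4).

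The genes that act beside R-spondins were taken from 6 lists, which hold 56 measured genes other than these 7. None of the 56 passed an adjusted p of 0.05 in either direction, with 0.788% of all genes as background, and their median log2 ratio was -0.05. For the counts of direction below, the background is 8920 of all 17631 genes with a higher mean in the mutant. An unadjusted p under 0.05 was found for 5 of them (8.93%, against 19.3% of all genes), all lower in the mutant: Fzd5, Tcf7, Pygo2, Notum and Tnfsf11.

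The E3 ligases that R-spondins clear, with proteoglycans and scaffold proteins that act with them, gave 3 higher and 9 lower means among 12 genes, and none had an unadjusted p under 0.05 (median log2 ratio -0.11). Rnf43 had means of 13.6 (mutant) and 16.1 (control) (log2 ratio -0.24, adjusted p = 0.294, the authors' deposited table). Dvl1 and Dvl3, cytoplasmic adaptors of Frizzled, had log2 ratios of -0.14 and -0.13. Znrf3, the partner ligase, named after its values were seen, stood at 38.4 in mutant and 38.3 in control molars.

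The Frizzled and LRP receptors, which the ligases remove, had 7 higher and 5 lower means among 12 genes (median log2 ratio 0.06). Fzd5 averaged 45.3 (mutant) and 56.7 (control) (adjusted p = 0.198), Fzd3 40.8 and 33.9 (adjusted p = 0.304), and the co-receptor Lrp6 103.0 and 90.0 (adjusted p = 0.350, the authors' deposited table). Downstream, 5 of 16 genes of intracellular transduction had higher means and 11 lower ones (median -0.08). Tcf7, a DNA-binding partner of beta-catenin, averaged 47.7 (mutant) and 65.9 (control) (adjusted p = 0.167, the authors' deposited table). The nuclear co-factors Pygo2 and Pygo1 had log2 ratios of -0.17 and 0.16.

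Of 15 measured beta-catenin targets other than Lgr5, 6 had higher and 9 lower means (median -0.05). Notum, a secreted enzyme that inactivates WNT ligands, averaged 18.2 (mutant) and 34.9 (control) (log2 ratio -0.94, adjusted p = 0.0698, the authors' deposited table). Bambi, a pseudoreceptor of BMP and TGF-beta signalling, had a log2 ratio of -0.20. Axin2, a feedback inhibitor and widely used WNT readout that was named after its values were seen, averaged 27.5 (mutant) and 29.8 (control). Lgr5 and Notum, which are both WNT targets, therefore had ratios in opposite directions. Tnfsf11, which encodes the cytokine RANKL, and Ndp, which encodes norrin, are other reported ligands of LGR4. Tnfsf11 averaged 0.178 (mutant) and 0.590 (control) (adjusted p = 0.0825), and Ndp 1.27 and 0.946 (adjusted p = 0.398, the authors' deposited table). Both Tnfsf11 means were under 1, so it was left out where p-values were adjusted over genes reaching that level. Of 5 receptors of the glycoprotein hormone and relaxin groups, Tshr was measured, at 1.50 and 1.13 (adjusted p = 0.490, the authors' deposited table).

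**Figure D4:**
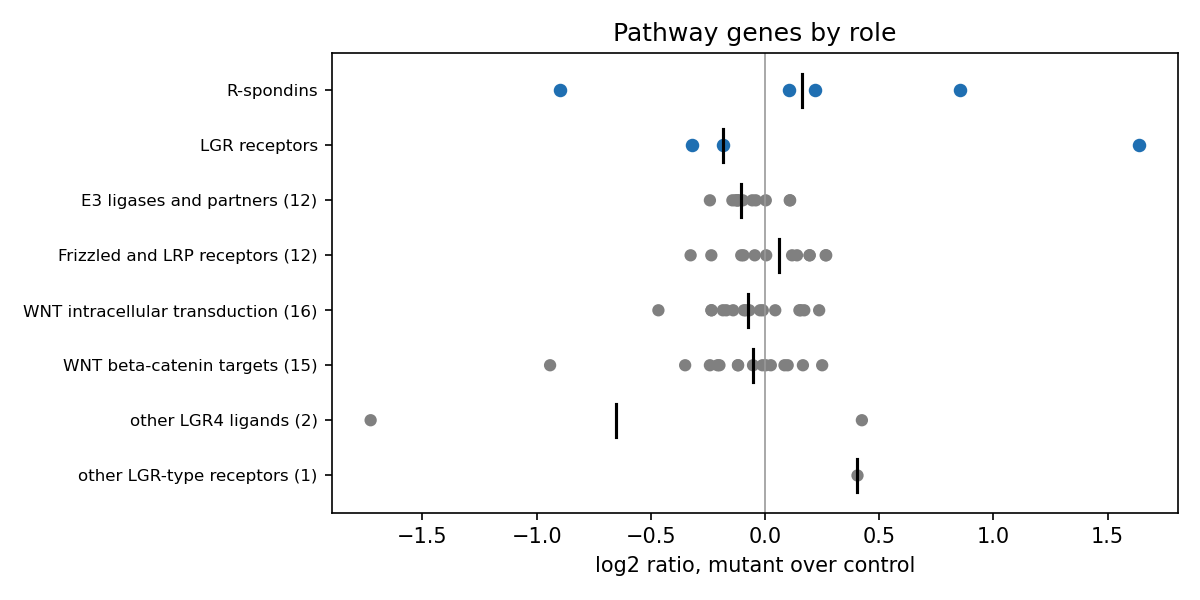
Log2 ratio of mutant over control for the R-spondins and LGR receptors (blue) and for the other pathway genes by role (grey), with the number of genes in brackets and the median as a black bar. The other lists crowd around 0 except for Notum and Tnfsf11 on the lower side, the latter with both means under 1. No point passes an adjusted p of 0.05.

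Group means of markers of several cell types and of sex-linked genes also differed, not all past the threshold. Their part in the ratios above was not tested. The sex-linked genes were added after their values were seen, and the labels used here give no sex. The 4 Y-linked genes Ddx3y, Eif2s3y, Uty and Kdm5d had higher means in the mutant (log2 ratios of 0.99, 0.73, 0.88 and 0.91), of which Ddx3y passed (adjusted p = 0.0486, the authors' deposited table). Xist, expressed from the inactive X chromosome of females, stood at 15.0 in mutant and 18.4 in control molars (adjusted p = 0.457, the authors' deposited table). All 6 erythroid markers had lower means in the mutant (summed level 424.6 in mutant and 944.2 in control molars, with Hbb-bs at 189.9 and 422.7 and Hba-a2 at 106.5 and 227.3), and 1 of them, Hba-a1, fell past the threshold. Hba-a1 and Hba-a2 are near-identical copies, so their split of reads is uncertain. All 8 osteoblast markers had lower means (47918 and 49768 summed), of which Sp7 and Bglap passed; Bglap, which also has near-identical copies, fell from 2234 to 1252, while Col1a1 stood at 45191 and 45713. Of 8 ameloblast markers 6 had lower means (178102 and 262629 summed), a sum that is mostly Amelx (adjusted p = 0.457, the authors' deposited table). Of 6 skeletal muscle markers 5 were lower (3.95 and 6.32 summed, with Acta1 at 0.889 and 1.98), as were 4 of 5 nerve and Schwann markers (24.1 and 34.9). None of the ameloblast, skeletal muscle or nerve and Schwann markers passed, and the skeletal muscle means were low in both groups. All 6 cell cycle markers had higher means (206.2 and 154.3), and Mki67 passed. Hba-a1, Sp7, Prrx1 and Tagln were named because they passed.

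Markers of the tissues in which LGR5 and LGR6 are best known, the epithelia, were divided in direction. Of 10 dental epithelium markers 5 had higher and 5 lower means, and their summed level was 2602 in mutant and 2589 in control molars. Krt5 stood at 1222 and 1192 and Krt14 at 923.5 and 973.2. Krt15, named after its values were seen, averaged 15.8 (mutant) and 6.34 (control) (adjusted p = 0.0545, the authors' deposited table). Its log2 ratio was 1.32, where the median of the list was -0.02. With the GC and length trend subtracted its adjusted p was 0.0157, recomputed from the authors' p-values, and that of Lgr5 was 0.225. A link between Krt15 and Lgr5 was not tested. Sox2 and Cldn4 were near the floor, at 0.628 and 0.161 in the mutant. Of 7 dental follicle and periodontal ligament markers 3 had higher means and 4 lower ones (411.0 and 303.0 summed). Postn stood at 326.7 and 200.2 and did not pass (adjusted p = 0.0590, the authors' deposited table). Acta2, at 23.7 and 53.0, passed as lower (adjusted p = 0.0318, the authors' deposited table). Of 8 markers of papilla and apical mesenchyme 6 had higher means (802.6 and 805.4), with Msx2 at 290.1 and 326.8, and Prrx1 was the 1 that passed, as higher. The 5 endothelial markers summed to 224.5 and 202.0, and the 6 of osteoclasts and macrophages to 315.0 and 313.5. Those of smooth muscle and pericytes, 6 in number, summed to 399.9 and 368.1, and Tagln passed, as lower. Of 6 odontoblast markers 1 had a higher mean and 5 lower ones (9813 and 11142 summed), and Bglap passed, as lower. Bglap and Ifitm5 are on both the odontoblast and the osteoblast list, so these lists are not separate.

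**Figure D5:**
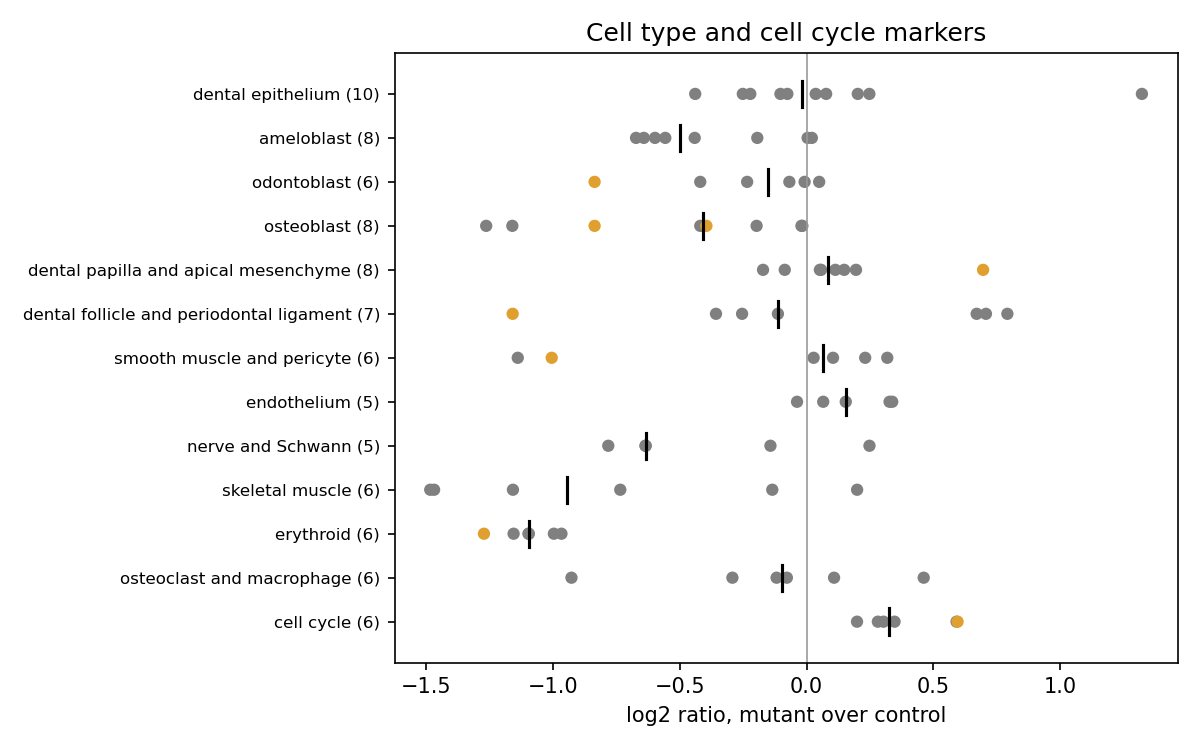
Log2 ratio of mutant over control for markers of 12 cell types and of the cell cycle, with the number of genes in brackets, the median as a black bar and genes at an adjusted p under 0.05 in orange. All erythroid and osteoblast markers lie below 0 and all cell cycle markers above it, while the dental epithelium markers lie on both sides, with Krt15 at 1.32.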

How the data were processed

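The deposited table gives, per the file headers, a Partek gene-specific analysis of knockout (mutant) against wild type (control). The submitters' processing notes name STAR 2.6.1d, Partek and mm10 but give them no roles. How reads were counted, normalised, filtered and modelled is not given in the sources used here. The authors' group means and totals are normalised signal on a linear scale, not read counts, and the total equals 4 times the sum of both means for all 17631 genes (relative tolerance 1e-06). The deposited ratio is mutant over control, and the deposited signed fold change (a score) restates it. The authors' p-values are adjusted by Benjamini-Hochberg, which was checked. Library depth is unknown from these means, so no precision from depth can be stated. The planned test on counts could not be used, so the authors' adjusted p under 0.05 was taken, as planned for group means.

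The log2 of the deposited ratio was used with no pseudocount (Python 3.11.15). Symbols matched GENCODE M21 for 17562 genes (99.6%), which gave coordinates, exonic length and GC content. Alternatives were pseudocounts of 0.1 and 1, centring on the median, scaling to equal sums and a threshold of 0.10. P-values were also adjusted over genes of which 1 group mean or both reached 1. A further alternative subtracted smooth trends on GC content and log2 length (mgcv 1.9.3 in R 4.3.3, fitted on 13128 protein-coding genes). Signed z, for the p-values, and log2 ratio were fitted separately. The trend took 25% of the variance of signed z. That subtraction was tested on simulated data and removes any real change that follows the trend. Per list, up to 3 genes by p-value, and per marker list up to 2 with the highest mean, are named, with exceptions stated. The members, lists and alternatives were chosen with earlier results of these data known. Protein sequences were not used here.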

Additional observations from a re-analysis of the deposited data

How the results depend on the processing

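Among the 7 genes, 49 alternative values were computed. All kept the direction of the main value, but for most settings this was fixed in advance. The pseudocounts, the other adjustment and the other threshold cannot reverse a direction, and centring shifted each log2 ratio by only 0.0034. The pseudocounts, centring and scaling also left the authors' p-values as they were, so they could not cross the threshold. Of the 49 values, 3 crossed it, namely Rspo1 when adjusted over genes with a group mean of 1 or more, and Rspo1 and Lgr5 at 0.10. The number of the 7 genes called lower went from 0 to 1 under each of these settings, and the number called higher from 0 to 1 at 0.10. Of the other pathway genes, 0 were called in either direction in the authors' deposited table. At 0.10, 2 of 56 (3.57%) were called lower (Notum and Tnfsf11), where 1.63% of all genes passed as lower and 3.64% in either direction. Both means of Tnfsf11 were under 1. With the GC and length trend subtracted, none of the 7 was called, while 0.233% of all genes were (41, against 139 without it); 4 of the 7 (Rspo1, Rspo3, Lgr4 and Lgr5) then had an unadjusted p under 0.05, against 13.6% of all genes. Scaling both groups to the same sum of means shifted every log2 ratio by 0.14. The median of the ligands went from 0.16 to 0.30 and that of the receptors from -0.18 to -0.046. Much of the gap between the sums lay in Amelx, at 112174 in mutant and 174946 in control molars, and Ambn, at 53601 and 72752. Neither passed (adjusted p = 0.457 and 0.503, the authors' deposited table), and the median log2 ratio of all genes was 0.00327. The trend subtraction, added for the medians after the data were seen, gave 0.19 for the ligands and -0.29 for the receptors. The pseudocounts, the centring and the minimum of 1 moved both medians by less than 0.1. Leaving out single libraries and DESeq2 were not run, since they need values per library. No paired analysis was possible because the table holds group means only, although the replicate numbers 2 to 5 recur in both groups. Depth per library is unknown, so the means of Lgr5 and Rspo3, near 1 in the control, carry an unknown counting error.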

Other observations

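The nearest measured protein-coding genes on either side of each of the 7 genes (14 in all) were looked up as a description of the loci. None passed an adjusted p of 0.05 in the authors' deposited table, where 0.788% of all genes did, and 2 of 14 (14.3%) had an unadjusted p under 0.05 (Angpt1 and Ptpn7), against 19.3% of all genes. Their median log2 ratio was 0.02, with 8 of 14 higher in the mutant, against 8920 of all 17631 genes. The neighbours of Lgr5, Zfc3h1 and Tspan8, had log2 ratios of 0.03 and 0.01 beside 1.64 for Lgr5, and those of Rspo1, 9930104L06Rik and Gnl2, had -0.17 and -0.12 beside -0.90.

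A pair of R-spondin genes lie next to angiopoietin genes, which encode ligands of the endothelial receptor TEK. Angpt4 lies 36.5 kb from Rspo4 and had means of 82.0 (mutant) and 71.4 (control), a log2 ratio of 0.20 (adjusted p = 0.509 in the authors' deposited table) beside 0.22 for Rspo4. Angpt1 lies 343.8 kb from Rspo2 and averaged 36.8 (mutant) and 28.1 (control), a log2 ratio of 0.39 (adjusted p = 0.0774 in that deposited table of the authors), where Rspo2 had 0.10. These neighbours were singled out after their values were seen.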
